A study of Mus with 6 samples.

Results

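The Slc25 genes encode the mitochondrial carrier family, and the members described here were all protein-coding genes of the deposited table whose name begins with Slc25a and a number. They were 47 genes out of 54532 in the table. Their levels were measured by RNA-seq in basolateral amygdala of female mice, in 3 Cntnap4 knockout libraries (KO) and 3 wild-type libraries (WT). Cntnap4 belongs to the contactin-associated proteins, membrane proteins of the neurexin superfamily. The labels name the knockout genotype without the allele, and nothing used here states the strain, the age or a treatment. They do not say that each library came from its own animal, so the p-values below measure the spread between these libraries, which may be technical. Values are FPKM (fragments per kilobase of gene length, relative to a size set for each library). Gene length is divided out, so comparisons of level between genes allow for length only.

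Mitochondrial carriers are small proteins built from tandem repeats of a membrane-spanning module, and most of them sit in the inner mitochondrial membrane. They pass nucleotides, phosphate, organic acids, amino acids, cofactors and metals between the matrix and the cytosol, usually by exchanging one solute for another. In brain, the adenine nucleotide translocators return ATP to the cytosol, the aspartate-glutamate carrier of neurons serves the malate-aspartate shuttle that moves reducing equivalents into mitochondria, and the glutamate carriers link mitochondria to the metabolism of the main excitatory transmitter.

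The libraries held 15933029 to 17789798 recovered reads. Cntnap4 was at 1.08, 1.19 and 1.28 FPKM in KO1, KO2 and KO3, against 3.53, 3.90 and 2.15 FPKM in WT1, WT2 and WT3, so its groups did not overlap, in the direction of the labels. In the fit described below its log2 fold change was -0.92 (SE 0.18). With a limma adjusted p of 0.302, Cntnap4 itself did not pass the threshold of 0.05. All 10 markers of basolateral amygdala projection neurons were detected, with a summed level of 838 to 1114 FPKM in KO and 852 to 953 FPKM in WT. Of these 10 markers 9 were higher on average in KO, and 3 were so at an unadjusted p under 0.05 with no overlap. These were Neurod6 at 30.0 FPKM in KO and 14.1 in WT on average, Tbr1 at 46.1 and 28.5, and Satb1 at 10.4 and 5.39 (KO before WT). The remaining marker, Lmo3, went the other way at the same limit, also with no overlap, at 20.8 FPKM in KO and 41.0 in WT on average. The 8 striatal markers summed to 287 FPKM in KO3 and 652 FPKM in WT3, against 53.0 to 80.2 FPKM in the other 4 libraries, so both libraries numbered 3 stood apart from the rest. WT3 also had 8.34% of its reads on mitochondrial DNA, against 4.10% to 6.31% in the other 5 libraries. Summed markers of oligodendrocyte precursors (7 genes) were at 84.9 to 87.7 FPKM in KO and 101.7 to 134 FPKM in WT, those of microglia (10 genes) at 127 to 162 and 179.6 to 242 FPKM, and those of meninges and mural cells (10 genes) at 47.2 to 57.5 and 61.7 to 114 FPKM, in each case KO before WT and with no overlap. Other marker sums overlapped between groups, at 592 to 830 FPKM in KO and 280.3 to 808 FPKM in WT for mature oligodendrocytes (10 genes), and at 704 to 728 and 718 to 909 FPKM for interneurons (10 genes). All 10 markers of mature oligodendrocytes had a positive log2 fold change (median 0.49), 0 of them at an unadjusted p under 0.05. For interneurons 5 were negative and 5 positive. Central amygdala markers (6 genes) summed to 11.6 to 15.6 FPKM in KO and 12.2 to 42.8 FPKM in WT, and endothelial markers (8 genes) to 110.4 to 121 and 105.9 to 160 FPKM. None of these markers was at 0 in all libraries. The part of these differences in the carrier results was not tested. In such bulk tissue, fewer cells of a type and less RNA per cell cannot be told apart.

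The carriers ranged from a mean of 208 FPKM for Slc25a4 to single reads. Of the 47 genes, 18 averaged over 10 FPKM across the 6 libraries, 20 lay between 1 and 10 FPKM, and 9 lay below 1 FPKM and were not tested. The 38 tested genes are those with a mean of at least 1 FPKM. Slc25a4, Slc25a5 and Slc25a3, which serve ATP supply, made up 43.2% of the summed FPKM of the family. The summed level of all 47 carriers was 881, 857 and 801 FPKM in KO1, KO2 and KO3, against 936, 904 and 864 FPKM in WT1, WT2 and WT3. WT3 lay inside the KO range, so the groups overlapped. Set beside the WT library of the same number, each KO library had the lower sum, though no label states that the numbers pair the libraries. Along the order of mean levels, only 7 of the 46 neighbouring pairs of carriers kept their order in all 6 libraries, among them Slc25a4 over Slc25a5 and Slc25a5 over Slc25a3, so most neighbours in the ranking did not differ beyond their spread.

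**Figure D1:**
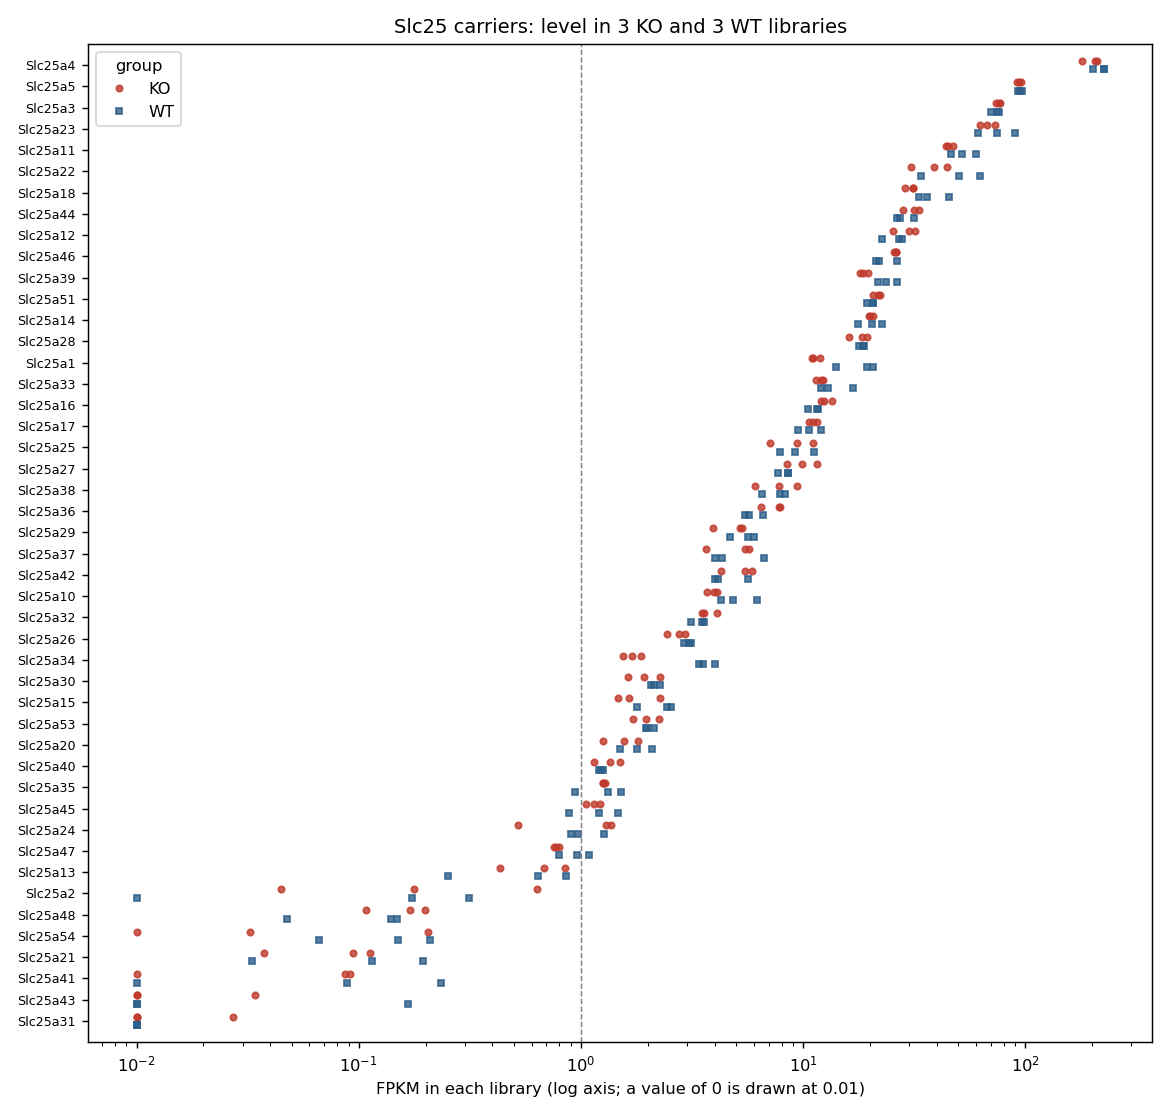
Level of 46 of the 47 Slc25 carriers in FPKM on a log axis, ordered by the mean over 6 libraries, with KO libraries as red circles above WT libraries as blue squares and the dashed line at the 1 FPKM limit for testing. Most carriers show mixed red and blue points, while the red points of Slc25a34 (1.55 to 1.86 FPKM) lie well to the left of its blue points (3.42 to 4.02 FPKM).

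KO was compared with WT in a fit across all genes, on log2(FPKM + 1), a scale on which differences of weakly expressed genes come out too small. No carrier passed the threshold of 0.05 after Benjamini-Hochberg adjustment over all genes (0 of 38 in limma, and 0 with voom on the recovered reads). Over all 13087 tested genes 1 gene passed, 0.00764%, and it was Rps27a, a ribosomal protein gene and not a carrier, named here after its values were seen. With the replicate number as a block no gene passed (0 of 13087). At an unadjusted p under 0.05, 4 of the 38 carriers were lower in KO and 0 were higher, where 7.25% of all tested genes were lower and 7.05% higher, 14.3% in either direction. Every KO value lay below every WT value for 5 of the 38 carriers and above for 1, against 10.1% and 11.9% of all tested genes. Between libraries of the same number, 11 of the 38 carriers were lower in KO in all 3 pairs and 6 were higher in all 3, against 21.7% and 23.2% of all tested genes. The shares of carriers at unadjusted p and of carriers with no overlap, counted in both directions, were thus near or below the background. The unadjusted count was 2 of 38 without KO2, where 6.72% of all tested genes were called, and 8 (7 lower and 1 higher) without WT3, where 18.4% were.

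The median log2 fold change of the 38 tested carriers was -0.02, against 0.01 over all tested genes. The carriers lay between -0.78 and 0.27, with quartiles at -0.15 and 0.06, and all tested genes had quartiles at -0.15 and 0.16. The log2 fold change was negative for 23 of 38 carriers and for 48.7% of all tested genes. For 26 of the 38 the 95% interval of the log2 fold change lay within 0.5 of zero on either side. The same share over all tested genes was not computed, and adding 1 to FPKM narrows the intervals of weakly expressed genes. Slc25a24 counted among them (-0.498 to 0.468), though its KO values ran from 0.521 to 1.36 FPKM. The carriers and all tested genes had similar median lengths, at 3980.5 and 4171 bases.

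**Figure D2:**
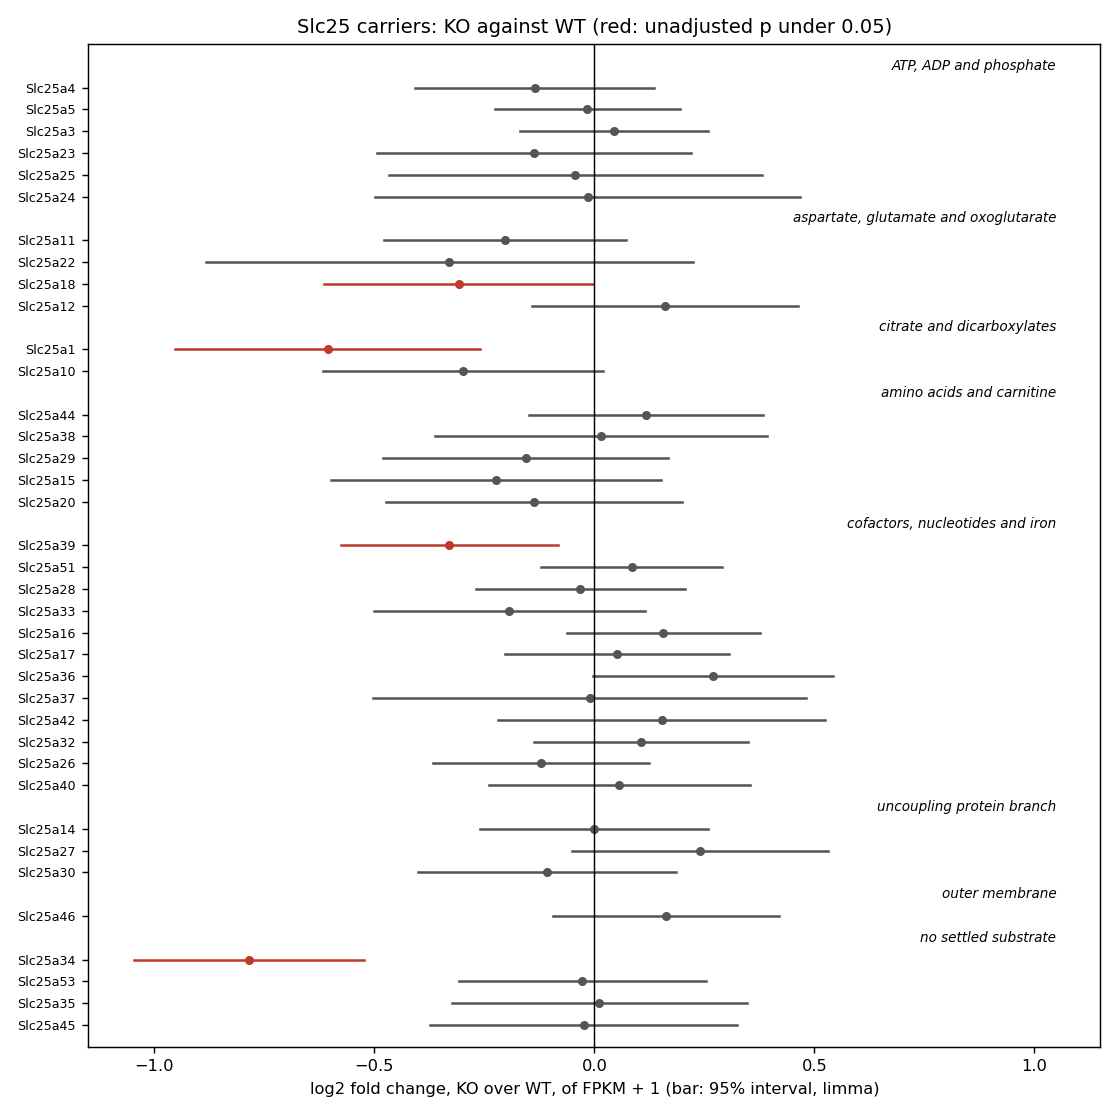
Log2 fold change of KO over WT for 37 of the 38 tested carriers, with its 95% interval from limma, grouped by the solute carried and ordered by level within a group; red marks an unadjusted p under 0.05. The 4 red intervals, of Slc25a34, Slc25a1, Slc25a39 and Slc25a18, lie below zero, and all the others drawn include it.

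Carriers of ATP, ADP and phosphate were the most abundant and differed little between groups. Of 9 such genes 6 were tested, 5 had a negative and 1 a positive log2 fold change, between -0.14 and 0.05, and none passed the test. Slc25a4, the adenine nucleotide translocator of heart, muscle and brain, was at 211, 205 and 179.6 FPKM in KO1, KO2 and KO3, and at 226, 226 and 201 FPKM in WT1, WT2 and WT3. KO1 and KO2 were above WT3, so the groups overlapped, and the log2 fold change was -0.14 (SE 0.12). KO was lower in all 3 pairs of the same number. The fold change on the log2 scale was -0.065 without KO3, -0.053 with the trend with gene length removed, -0.060 with quantile normalization and -0.077 with a common sum per library. It was larger without WT3 (-0.191), without KO1 (-0.181) and without KO2 (-0.160). Its paralogue Slc25a5, the form of proliferating tissues, was at 95.8, 93.5 and 92.0 FPKM in KO and at 95.1, 92.5 and 96.7 FPKM in WT. The groups overlapped, with a 95% interval of the log2 fold change from -0.23 to 0.20.

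Slc25a3, the carrier that brings in phosphate for ATP synthesis, was at 77.1, 74.1 and 76.3 FPKM in KO, against 74.4, 75.9 and 70.1 FPKM in WT, with an interval from -0.17 to 0.26. Slc25a23, a calcium-regulated carrier that exchanges ATP-Mg for phosphate, was at 73.0, 67.1 and 62.8 FPKM in KO and at 61.4, 74.7 and 89.7 FPKM in WT. Its WT libraries spread on both sides of the KO values, and WT3 was the highest of the 6. Its log2 fold change of -0.14 was -0.0044 without WT3 and -0.274 without WT1. The related Slc25a25 and Slc25a24 averaged 9.19 ± 1.98 and 1.06 ± 0.47 FPKM in KO, and 9.45 ± 1.69 and 1.05 ± 0.20 FPKM in WT (SD, n = 3 each). Slc25a31, the translocator of testis, had 1 read in KO2 and 0 in every other library, and 0 reads allow up to 0.0879 FPKM for this gene, the level of 3 reads (counting error only).

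Carriers of the malate-aspartate shuttle and of glutamate had one member at an unadjusted p under 0.05. Of 5 genes 4 were tested, 3 with a negative and 1 with a positive log2 fold change. Slc25a12, the calcium-regulated aspartate-glutamate carrier of neurons, was at 32.1, 29.8 and 25.3 FPKM in KO and at 27.2, 27.8 and 22.7 FPKM in WT. The groups overlapped, though KO was higher in all 3 pairs of the same number, and the log2 fold change was 0.16 (SE 0.13). It was 0.072 without WT3, 0.089 without KO1, 0.253 without KO3 and 0.077 with the trend with gene length removed. Slc25a13, its counterpart in liver, was at 0.433, 0.683 and 0.847 FPKM in KO and at 0.253, 0.641 and 0.858 FPKM in WT, below the limit for testing. Slc25a11, the oxoglutarate-malate carrier that completes the shuttle, was at 47.1, 45.0 and 44.1 FPKM in KO, against 59.7, 52.0 and 46.3 FPKM in WT. KO1 was above WT3, KO was lower in all 3 pairs of the same number, and its log2 fold change of -0.20 (SE 0.12) had a limma adjusted p of 0.443. It was -0.11 without WT1 and -0.11 with the trend with gene length removed, against -0.29 without WT3. The unadjusted p was under 0.05 in 1 of 16 alternatives, the fit without WT3.

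Both glutamate carriers were lower on average in KO. Slc25a18, the glutamate carrier of astrocytes, was at 31.3, 28.7 and 31.4 FPKM in KO, against 45.2, 36.2 and 33.3 FPKM in WT. The groups did not overlap, and the log2 fold change was -0.31 (SE 0.13), with a limma adjusted p of 0.347 and an unadjusted p just under 0.05. The unadjusted p was under 0.05 in 6 of 16 alternatives, and among removals of 1 library only without WT3. On the log2 scale the fold change was -0.19 without WT1 and -0.20 with the length trend removed, against -0.40 without WT3. The 10 astrocyte markers summed to 483 to 571 FPKM in KO and 521 to 694 FPKM in WT, an overlap. Of these markers 9 were lower on average in KO (median log2 fold change of the 10 -0.25), 2 of them at an unadjusted p under 0.05. The 1 higher marker, Slc1a2, was the largest part of the sum, at 241 FPKM in KO and 224 FPKM in WT on average. WT3 had the highest astrocyte sum of the 6 libraries and the lowest Slc25a18 of the 3 WT libraries. Slc1a2 weighed heavily in these sums, at 149.6 FPKM in WT1 and 315 FPKM in WT3. Of the 3 WT libraries, WT1 was the highest for Aqp4, Gfap and Slc6a11, as for Slc25a18, and WT3 was the highest for the other astrocyte markers. The part of astrocyte content in this difference was not tested. The gene overlaps Atp6v1e1 on the opposite strand by 32 bases.

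Slc25a22, the other glutamate carrier, was at 44.4, 38.9 and 30.7 FPKM in KO and at 62.6, 50.1 and 34.0 FPKM in WT. It was lowest in library 3 of both groups, and KO1 and KO2 were above WT3, while KO was lower in all 3 pairs of the same number. The log2 fold change was -0.33 (SE 0.23), with a limma adjusted p of 0.525. With the replicate number as a block the adjusted p was 0.246, and the unadjusted p came under 0.05. The log2 fold change was -0.56 without WT3, -0.19 without KO3 and -0.13 without WT1. Its coefficient of variation within groups, 18.1% in KO and 29.3% in WT, was above the family medians of 8.67% in KO and 11.8% in WT.

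Slc25a1 and Slc25a10, which carry citrate and dicarboxylates, were both lower in every KO library than in any WT library. Slc25a1 (ENSMUSG00000003528, chromosome 16, 17925223 to 17928219 on GRCm38, minus strand) exports citrate, the source of cytosolic acetyl groups for fatty acid and sterol synthesis. It was at 11.0, 11.1 and 11.9 FPKM in KO1, KO2 and KO3, against 20.6, 14.0 and 19.4 FPKM in WT1, WT2 and WT3. The KO libraries lay close together, WT2 was the nearest WT library, and the groups did not overlap. The ratio of means was 0.630 and the log2 fold change -0.61 (SE 0.15), and with a limma adjusted p of 0.302 it did not pass the threshold. It ranked at place 171 of 13087 genes by p, with an average of 543 recovered reads behind it in a library. The unadjusted p was under 0.05 in 16 of 16 alternative settings, with log2 fold changes from -0.76 to -0.51.

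Slc25a10, the dicarboxylate carrier that exchanges malate and succinate for phosphate, was at 3.70, 4.09 and 3.99 FPKM in KO, against 6.24, 4.84 and 4.25 FPKM in WT. The groups did not overlap, though KO2 and WT3 were close. The log2 fold change was -0.30 (SE 0.14), with a limma adjusted p of 0.368. It was -0.17 without WT1, -0.40 without WT3 and -0.41 without both libraries numbered 3. The unadjusted p was under 0.05 in 2 of 16 alternatives. The third gene of this group, the oxodicarboxylate carrier Slc25a21, was at 0.0814 ± 0.0390 FPKM in KO and 0.114 ± 0.0808 FPKM in WT (SD, n = 3 each).

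Carriers of cofactors, nucleotides and iron formed the largest group, with 13 genes tested, 5 with a negative and 8 with a positive log2 fold change (median 0.05). Slc25a39 (ENSMUSG00000018677, chromosome 11, 102402985 to 102407946, minus strand), which brings glutathione into mitochondria, was at 19.6, 18.7 and 18.0 FPKM in KO, against 26.5, 21.6 and 23.6 FPKM in WT. The groups did not overlap, and the log2 fold change was -0.33 (SE 0.10), with a limma adjusted p of 0.303. The unadjusted p was under 0.05 in 13 of 16 alternatives, and the log2 fold changes ranged from -0.40 to -0.26. Its paralogue Slc25a40 was at 1.14, 1.35 and 1.50 FPKM in KO and at 1.21, 1.24 and 1.26 FPKM in WT, with an overlap.

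Slc25a16, a carrier linked to coenzyme A, was the 1 carrier whose KO values all lay above the WT values. It was at 13.4, 12.04 and 12.4 FPKM in KO, against 11.5, 10.5 and 11.7 FPKM in WT, with a log2 fold change of 0.16 (SE 0.09) and a limma adjusted p of 0.458. Slc25a36, a pyrimidine nucleotide carrier, was at 6.45, 7.87 and 7.81 FPKM in KO and at 5.46, 5.74 and 6.62 FPKM in WT. KO1 was below WT3, so the groups overlapped, and the log2 fold change of 0.27 (SE 0.12, limma adjusted p of 0.352) was the highest of the family. It was 0.16 with the length trend removed and 0.35 without KO1. The unadjusted p was under 0.05 in 5 of 16 alternatives, among them the replicate block (limma adjusted p = 0.265). An antisense gene, Gm16185, overlaps the Slc25a36 locus over 3285 bases. It averaged 2.65 FPKM in KO and 1.57 FPKM in WT, and as nothing used here says whether counting took strand into account, reads of the overlapping genes cannot be told apart. The related Slc25a33 was at 12.3, 12.04 and 11.5 FPKM in KO and at 12.04, 13.0 and 16.8 FPKM in WT, where WT3 was the highest and WT1 lay inside the KO range. Its log2 fold change of -0.19 was -0.061 without WT3 and -0.284 without WT1.

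Of the iron importers, Slc25a28 (mitoferrin-2) was at 18.5, 19.5 and 16.1 FPKM in KO and at 18.7, 17.9 and 18.6 FPKM in WT, and Slc25a37 (mitoferrin-1) was at 3.64, 5.71 and 5.45 FPKM in KO and at 4.33, 4.01 and 6.68 FPKM in WT. Both overlapped between groups, and their log2 fold changes of -0.03 and -0.01 changed sign in 4 and 5 of 16 alternatives. The NAD carrier Slc25a51 averaged 21.5 ± 0.75 FPKM in KO and 20.2 ± 0.77 FPKM in WT (SD, n = 3 each). Of the other members, Slc25a17, Slc25a26, Slc25a32 and Slc25a42 had log2 fold changes between -0.12 and 0.15.

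Amino acid and acylcarnitine carriers showed no member at an unadjusted p under 0.05, with 3 of 5 tested genes lower and 2 higher on average in KO. Slc25a44, which imports branched-chain amino acids, was the most abundant of them at 33.4, 31.5 and 28.0 FPKM in KO and 27.3, 31.6 and 26.6 FPKM in WT, and the groups overlapped. Its log2 fold change of 0.12 lay between 0.062 and 0.190 with 1 library left out. Slc25a38, the glycine carrier of haem synthesis, had a log2 fold change of 0.01, against -0.16 for Slc25a29, which carries basic amino acids. The log2 fold change of Slc25a15, the ornithine carrier, was -0.22, and that of Slc25a20, which brings in acylcarnitines for fatty acid oxidation, was -0.14. Slc25a2, the ornithine carrier paralogue, was below the limit for testing, at 0.285 ± 0.31 FPKM in KO and 0.162 ± 0.16 FPKM in WT (SD, n = 3 each), on a mean of 5.33 reads per library.

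In the uncoupling protein branch, Slc25a14 averaged 20.1 ± 0.42 FPKM in KO and 20.2 ± 2.48 FPKM in WT, and Slc25a30 averaged 1.94 ± 0.32 FPKM in KO and 2.16 ± 0.10 FPKM in WT (SD, n = 3 each). Slc25a27 was at 8.51, 11.6 and 9.92 FPKM in KO and at 8.53, 7.71 and 8.55 FPKM in WT, with KO1 inside the WT range and a log2 fold change of 0.24 (SE 0.12) and a limma adjusted p of 0.405. Slc25a46, a member of the outer membrane that shapes mitochondria, averaged 26.0 ± 0.23 FPKM in KO and 23.2 ± 2.87 FPKM in WT, with WT1 above all KO libraries.

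Slc25a34, a carrier with no settled substrate, showed the clearest separation of the family. The gene (ENSMUSG00000040740) lies on chromosome 4 from 141618824 to 141623821 on the minus strand, and no other gene of the table overlaps it. It was at 1.55, 1.71 and 1.86 FPKM in KO1, KO2 and KO3, against 4.02, 3.55 and 3.42 FPKM in WT1, WT2 and WT3. Every KO library was below every WT library, and the gap between the groups exceeded the range within either. The ratio of means was 0.466 and the log2 fold change -0.78 (SE 0.11, 95% interval -1.05 to -0.52), with a limma adjusted p of 0.302. It ranked at place 4 of the 13087 genes by p and did not pass the threshold. The unadjusted p was under 0.05 in 16 of 16 alternatives, and the adjusted p ranged from 0.124 without WT3 to 0.685 without KO2. A mean of 123 recovered reads per library stood behind it. With a pseudocount of 0.1 the log2 fold change was -1.06, and with voom on the recovered reads it was -1.10.

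The other carriers with no settled substrate did not share this pattern of values. Slc25a35, set beside Slc25a34 as its paralogue, was at 1.26, 1.29 and 1.25 FPKM in KO and at 0.945, 1.32 and 1.51 FPKM in WT, with a log2 fold change of 0.01 (SE 0.14). Slc25a45 and Slc25a53 had log2 fold changes of -0.02 and -0.03. Slc25a53 overlaps Zcchc18 on the opposite strand over 5318 bases, and Zcchc18 averaged 59.1 FPKM in KO and 60.1 FPKM in WT, so some of its reads may belong to that gene. Slc25a47 was at 0.755, 0.773 and 0.793 FPKM in KO and at 1.09, 0.962 and 0.794 FPKM in WT, below the limit for testing. The groups did not overlap, but KO3 and WT3 were nearly equal. Slc25a48 averaged 7.67 reads per library, and Slc25a43 had 6 reads in all, 1.00 per library. Of the ATP-Mg carrier paralogues, Slc25a54 and Slc25a41 averaged 3.33 and 1.83 reads per library.

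**Figure D3:**
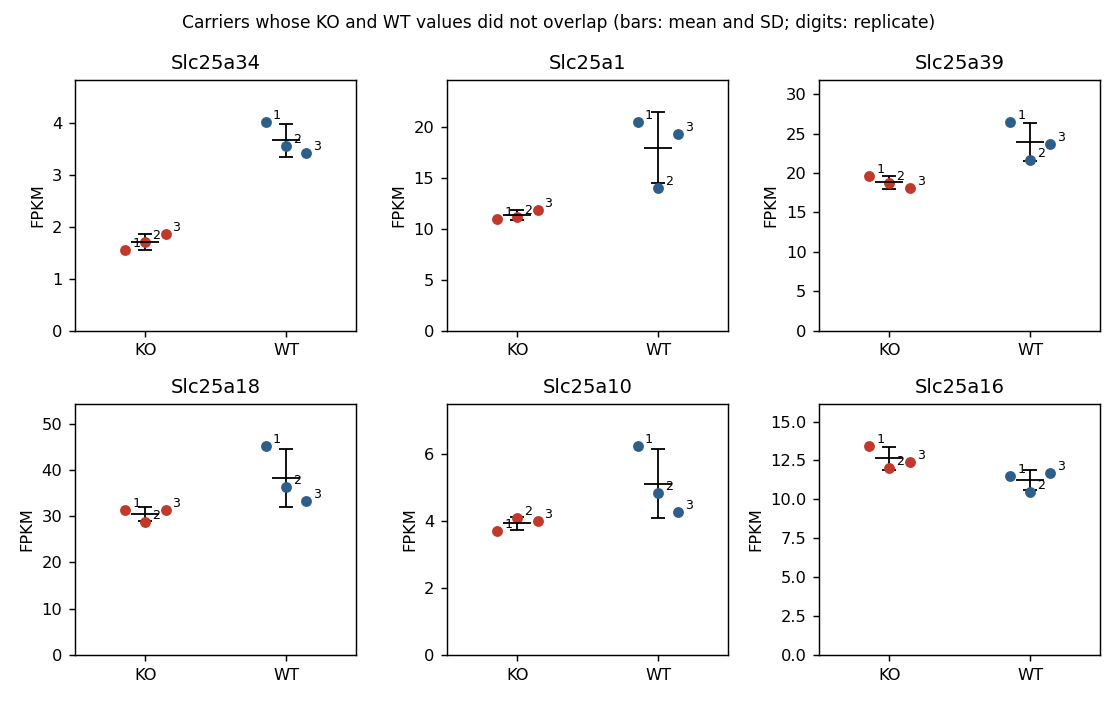
FPKM of the 6 tested carriers whose KO and WT values did not overlap, with KO at the left and WT at the right of each panel; dots are libraries numbered by replicate, and bars give the mean and SD (n = 3 each). In 5 panels the KO values lie below the WT values, with Slc25a34 at 1.71 against 3.66 FPKM on average, and in the panel of Slc25a16 they lie above.

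Ratios of paralogues within a library do not depend on how libraries were scaled, and 7 pairs were described this way, as log2 of the FPKM ratio and with no test, since the smallest exact permutation p that 3 against 3 libraries allow is 0.1. Slc25a34 over Slc25a35 was at 0.30, 0.41 and 0.57 in KO, against 2.09, 1.42 and 1.17 in WT. The ratio was lower in every KO library. Slc25a33 over Slc25a36 was at 0.93, 0.61 and 0.56 in KO, against 1.14, 1.18 and 1.34 in WT, again with no overlap. Slc25a39 over Slc25a40 was at 4.11, 3.79 and 3.59 in KO, against 4.45, 4.13 and 4.23 in WT, where KO1 and WT2 nearly met. Slc25a4 over Slc25a5 averaged 1.08 ± 0.10 in KO and 1.20 ± 0.12 in WT (SD, n = 3 each), and the groups overlapped.

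The remaining pairs differed between groups by less than their spread. Slc25a12 over Slc25a13 averaged 5.52 ± 0.66 in KO and 5.64 ± 1.02 in WT, Slc25a28 over Slc25a37 averaged 1.89 ± 0.40 and 1.92 ± 0.38, and Slc25a22 over Slc25a18 averaged 0.30 ± 0.29 and 0.32 ± 0.25 (KO before WT, SD, n = 3 each). Slc25a22 over Slc25a18 was lowest in library 3 of both groups, at -0.03 in KO3 and 0.03 in WT3, against 0.44 to 0.51 in the other libraries.

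**Figure D4:**
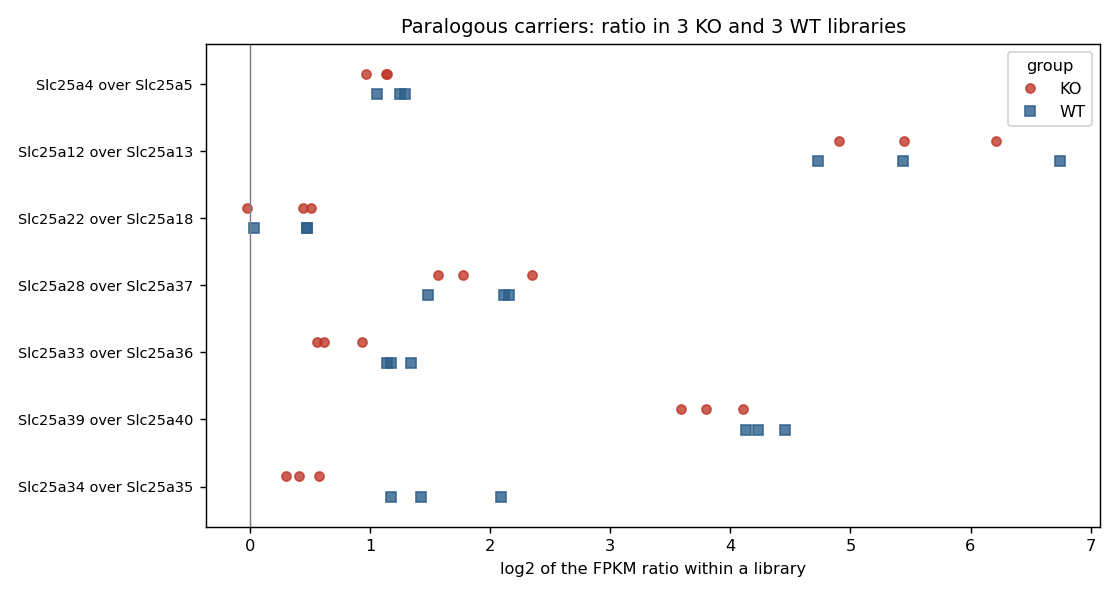
Log2 of the FPKM ratio within each library for 7 pairs of paralogous or paired carriers, with KO as red circles above WT as blue squares. The KO values of Slc25a34 over Slc25a35 (0.30 to 0.57) and of Slc25a33 over Slc25a36 (0.56 to 0.93) lie left of the WT values, and the pairs of Slc25a12 and Slc25a22 overlap.

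The libraries numbered 3 stood together at the low end for part of the carriers. Library 3 was the lowest of both groups for 10 of the 38 tested carriers (26.3%), against 18.9% of all tested genes, and it was the highest of both for 1 (2.63%), against 16.5%. Library 1 was the lowest of both groups for 10.5% of the carriers and the highest for 18.4%, against 13.2% and 16.3% of all tested genes. Library 2 was the lowest of both for 5.26% and the highest for 7.89%, against 9.12% and 8.85%. The 10 carriers included Slc25a4, Slc25a11, Slc25a12, Slc25a22 and Slc25a44. The striatal marker sums given above were higher in KO3 and WT3 than in the other libraries, opposite to these carriers, and their part was not tested. Without both libraries numbered 3 the median log2 fold change of the carriers was 0.01, that of Slc25a34 was -0.86 and that of Slc25a1 was -0.58.

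**Figure D5:**
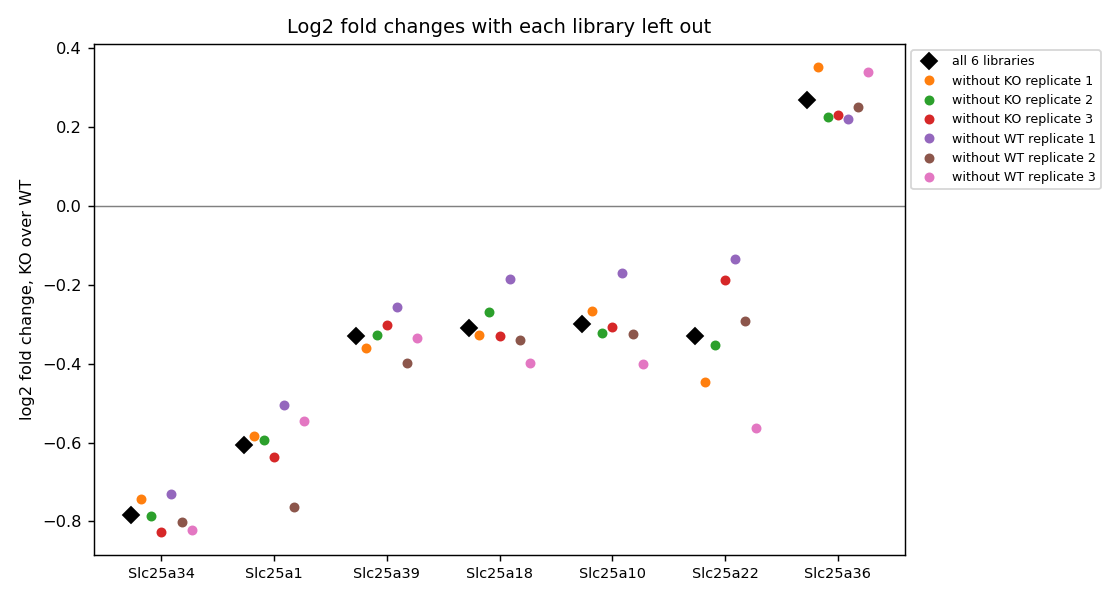
Log2 fold change of KO over WT for 7 carriers with all 6 libraries (black diamonds) and with each library left out in turn (coloured circles). Slc25a34 stays between -0.83 and -0.73 and Slc25a1 between -0.76 and -0.51, while Slc25a22 moves between -0.56 and -0.13.

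Relatives of the family with other names were set beside it. Mtch1, a carrier-like protein of the outer membrane, was at 122, 110.4 and 92.9 FPKM in KO, against 177, 151 and 132 FPKM in WT, with no overlap and a log2 fold change of -0.50 (SE 0.15, limma adjusted p = 0.303). Its paralogue Mtch2, which inserts proteins into the outer membrane, averaged 8.53 ± 0.57 FPKM in KO and 8.18 ± 0.67 FPKM in WT. Ucp2, an uncoupling protein, was at 3.49, 2.85 and 2.80 FPKM in KO, against 5.71, 4.73 and 3.89 FPKM in WT, with no overlap and a log2 fold change of -0.50 (SE 0.14, limma adjusted p = 0.302). Ucp1 and Ucp3 were below the limit for testing. Of these 5 genes 3 were tested, and none passed the threshold.

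Of 20 other transporters and their regulators in the inner membrane, none passed the threshold, and at an unadjusted p under 0.05 2 were lower and 2 higher in KO. Smdt1, a subunit of the calcium uniporter, was at 26.3, 25.3 and 27.8 FPKM in KO, against 35.4, 33.3 and 41.5 FPKM in WT. Mcub, the inhibitory subunit of the same channel, averaged 0.698 ± 0.15 FPKM in KO and 1.32 ± 0.41 FPKM in WT, while the pore subunit Mcu averaged 3.64 ± 0.04 and 3.95 ± 0.73 FPKM (KO before WT, SD, n = 3 each). Tmem65 averaged 28.0 ± 2.85 FPKM in KO and 21.8 ± 1.66 FPKM in WT (SD, n = 3 each). Smdt1, Mcub and Tmem65 each had no overlap between groups.

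Enzymes that work with the carriers differed little. Of 6 enzymes of the malate-aspartate and glycerol phosphate shuttles 2 had a negative and 4 a positive log2 fold change (median 0.11), and none was at an unadjusted p under 0.05. Mdh1, the cytosolic malate dehydrogenase, was at 273, 282 and 298 FPKM in KO, against 256, 261 and 237 FPKM in WT, with no overlap and a log2 fold change of 0.18 (SE 0.10). Of 20 genes of the citric acid cycle and pyruvate dehydrogenase 11 had a negative and 9 a positive log2 fold change (median -0.01), and none was at an unadjusted p under 0.05. Idh3a, a subunit of the NAD-dependent isocitrate dehydrogenase, averaged 49.4 ± 1.74 FPKM in KO and 43.7 ± 3.68 FPKM in WT, with no overlap. Sucla2 (35.5 and 32.0 FPKM on average, KO before WT) and Dlst (12.2 and 11.5 FPKM) were also higher in every KO library than in any WT library. No gene of this list was lower in that way. The 3 outer membrane channels of the Vdac family had log2 fold changes between -0.06 and 0.09, with Vdac1 at 157 ± 13.9 FPKM in KO and 162 ± 9.12 FPKM in WT (SD, n = 3 each).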

How the data were processed

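The authors deposited 1 table of FPKM per gene, with 1 column per library and the length, position and biotype of each gene, per the file headers. Per the labels' protocols, a Qiagen kit gave the RNA and a SMARTER mRNA kit the libraries. GRCm38 and mm10 are the builds in the submitters' processing notes. The aligner, counter and strand setting were not given in the sources used here. FPKM multiplied by gene length gave whole multiples of 1 step in 100% of values (tolerance 0.01 reads), from which reads were recovered. The library size implied by this step ran from 0.964 (KO1) to 1.051 (WT1) times the sum of recovered reads. The sources used here do not explain this scaling, which is part of the FPKM values.

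Genes averaging at least 1 FPKM over the 6 libraries were tested for KO against WT on log2(FPKM + 1), by limma 3.58.1 (R 4.3.3) with a variance trend. Tests were two-sided and adjusted over all 13087 tested genes. The test was tried on simulated data. Members, lists and the rule for named genes (members at unadjusted p under 0.05, with no overlap, among the 8 most abundant or in a listed pair; up to 4 genes per other list) were chosen with earlier results of these data known. Members outside this rule are given in brief. One member, counted in every total, is not reported here by name or drawn. Libraries of the same number deviated together across genes (correlations of 0.175, 0.145 and 0.330). KO1 correlated more with WT2 (0.283) than with WT1, and no label states a shared litter or day. The data thus do not settle whether the numbers pair the libraries, and every comparison by number rests on this open point.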

Additional observations from a re-analysis of the deposited data

How the results depend on the processing

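The results were recomputed under 16 alternatives, of which rescaling outside mitochondrial DNA and leaving out both libraries numbered 3 were chosen after seeing the data. Slc25 members past the adjusted threshold numbered 0 in each. Members at an unadjusted p under 0.05 numbered 2 to 8 with 1 library left out, where 6.72% to 18.4% of all genes were called, and 6 with the replicate block, where 17.8% were, against 4 and 14.3% as reported. The block moved no adjusted call of a carrier. Genes past the threshold over the whole table numbered 0 with no filter, with quantile normalization, with the length trend removed, with no variance trend, with the replicate block and without both libraries numbered 3, and 0 to 9 with 1 library left out (9 without WT3). The median log2 fold change of the carriers was 0.017 with a common sum per library, 0.0053 without both libraries numbered 3, and -0.057 to -0.014 with 1 library left out. With the common sum the median of all genes was 0.06, and 9.35% of genes were higher and 4.43% lower at an unadjusted p under 0.05, against 7.05% and 7.25% as reported.

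Small differences changed sign. Slc25a5 was at 0.060 with quantile normalization, 0.042 with the common sum, 0.107 with the length trend removed and 0.013 without both libraries numbered 3. Slc25a28 was at 0.024 with the common sum, 0.097 with the length trend removed, 0.043 without KO3 and 0.051 without both libraries numbered 3. Slc25a37 was at 0.041 with the common sum, 0.0015 with rescaling outside mitochondrial DNA, 0.158 without KO1, 0.180 without WT3 and 0.110 without both libraries numbered 3. Slc25a40 was at -0.042 with the length trend removed, Slc25a35 at -0.093 without WT1 and Slc25a23 at 0.047 without both libraries numbered 3. The cause was not tested. With 1 library left out, Slc25a28 ranged from -0.087 to 0.043, Slc25a37 from -0.128 to 0.180 and Slc25a35 from -0.093 to 0.092. Depth limits the 9 carriers below 1 FPKM, which rested on at most 43.8 reads per library on average.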
